A study of Mus musculus with 16 samples.

Results

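The genes described here code for the enzymes and carriers that oxidize fatty acids in mitochondria and peroxisomes, for ketone body formation, and for other known targets of the peroxisome proliferator-activated receptor PPARα. Members were chosen by name, with earlier results of these data known. Of the 42 listed genes, 41 have a probe among the 19057 genes that the array annotation covers, and 38 were bright enough to test. Ucp2 has no probe with its symbol in the annotation used, so its level was not analysed here. The probes of Cpt1a, the entry enzyme of the carnitine shuttle, of Fabp1, the liver fatty acid-binding protein, and of Vnn1, a pantetheinase, exceeded the detection threshold on 0 of 16 arrays. Fabp1 is known as an abundant liver transcript, so its probe gives no measure of its level. For Cpt1a and Vnn1 too, an undetected probe does not show that the gene is silent.

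Liver RNA of male and female mice, 2 months old, was hybridized to Illumina Ref-6 v2 bead arrays, with 1 array for each sample. The wild-type (WT) groups held 3 males and 5 females. The knockout groups, 3 males and 5 females, carried the genotype that the labels write as hs-RXRa-Dex4-/-, a deletion in Rxra restricted to hepatocytes, and are called KO below. Earlier mice of this kind, which the study cites, lack the DNA-binding domain of RXRα in hepatocytes only. The other cells of a KO liver keep the gene, and the sources used here do not give the strain, the Cre driver, the diet, the feeding state or the hour of collection. Nothing in the labels says that the samples are other than single livers, and p-values measure the spread between these samples.

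RXRα binds DNA as the obligate partner of PPARα, a receptor that fatty acids activate, at paired hexamers separated by a single base (a DR1 element). In liver this heterodimer is known for raising transcription of fatty acid oxidation genes in fasting. Fatty acids enter mitochondria as carnitine esters and are shortened there by rounds of dehydrogenation, hydration, a further dehydrogenation and thiolysis, while very long chains are shortened first in peroxisomes. Acetyl-CoA from this process feeds the synthesis of ketone bodies.

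The value of a probe is an intensity, background-subtracted and quantile normalized by the authors, and differences are given on the log2 scale after 16 was added. A probe counted as detected above 3 times the background of its array, which came to an intensity of about 21. Xist, the RNA of the inactive X chromosome, was detected on 10 of 10 female arrays and on 0 of 6 male arrays. The Rxra probe read 78.4, 47.7 and 65.5 in male WT and 62.1, 109 and 84.4 in male KO livers, 59.7, 64.4, 52.6, 106 and 66.2 in female WT and 88.6, 101, 74.9, 54.2 and 81.7 in female KO livers. Its KO differences of 0.33 ± 0.24 in males and 0.17 ± 0.19 in females did not pass (limma adjusted p = 0.546 and 0.817). The place of this probe relative to the deleted part of the gene is not known here, so it does not check the genotype. Probes of 7 of 7 hepatocyte markers were detected, and their summed intensity ranged from 76362 to 101716 over the 16 arrays.

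The question of the KO comparison was which of these genes depend on hepatocyte RXRα. Of the 5 members called in either sex, 4 belong to the group listed under peroxisomal oxidation, which holds 9 of the 38. Acaa1b and Decr2 fell in KO livers of both sexes, Eci2 and Abcd2 fell in KO females, and Pdk4 rose in KO males. The limma fit called 2 lower and 1 higher of 38 members in males, where 0.646% of the 9906 genes tested were called lower and 0.919% higher. In females it called 4 lower and 0 higher, where 1.09% of all genes were called lower and 1.29% higher. When only the 2 groups compared were fitted, Eci2 was called in males (limma adjusted p = 0.0438) and not in females. In those fits Pdk4 was called in females (limma adjusted p = 0.0444) and not in males, and Abcd2 in neither sex. Of the 38 members, 28 had a log2 difference below 0 in males and 33 in females, beside 47.3% and 49.4% of all genes. The median member difference was -0.18 in males and -0.32 in females, beside 0.02 and 0.00 for all genes. For the 33 members detected on all 16 arrays the medians were -0.19 and -0.32. At an unadjusted p under 0.05, 18 members were lower and 1 was higher in KO females, beside 5.76% and 6.60% of all genes, and 11 were lower and 3 higher in KO males, beside 6.76% and 7.56%. These genes were listed with earlier results of these data known and vary together between arrays, and the male comparison rests on 3 arrays a group. In whole liver, fewer cells of a type and less RNA per cell cannot be told apart.

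**Figure D1:**
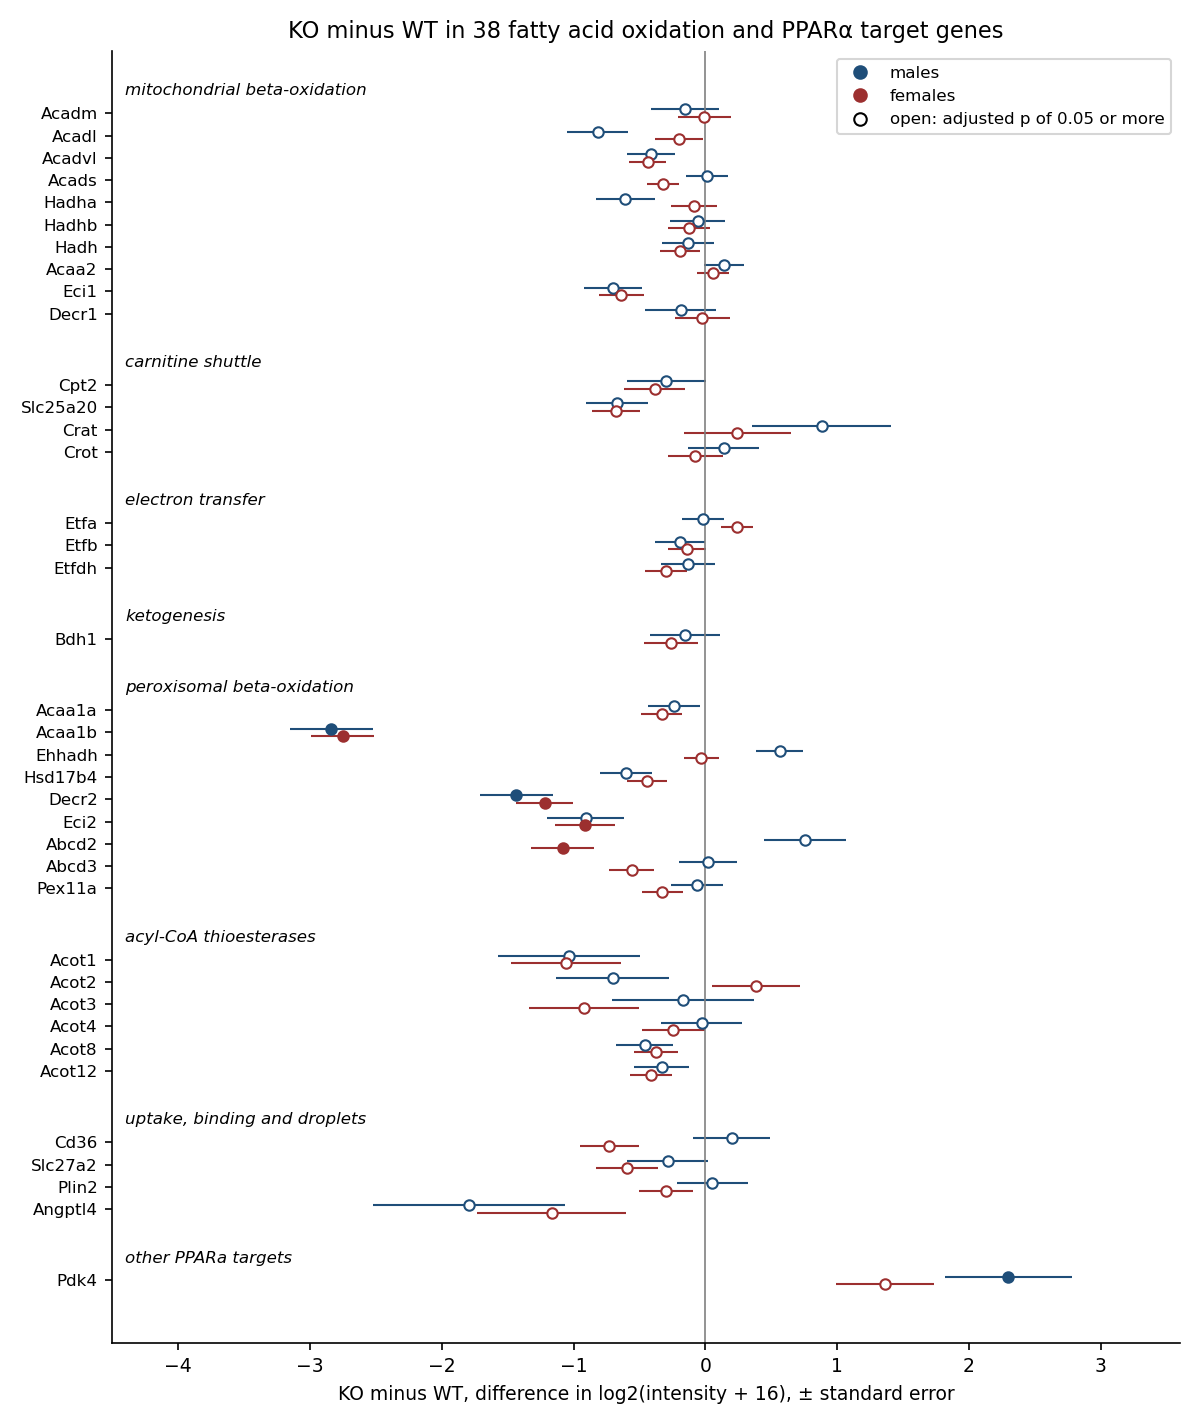
Difference between KO and WT livers of the 38 tested genes, in log2(intensity + 16) with the standard error of the limma fit, by compartment (horizontal axis, KO minus WT; points in blue for males and in red for females; filled where the adjusted p is under 0.05). Acaa1b lies farthest to the left in both sexes, at -2.84 and -2.75, and Pdk4 farthest to the right, at 2.30 and 1.36.

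Acaa1b, a peroxisomal 3-ketoacyl-CoA thiolase of rodents that cleaves acetyl-CoA from shortened acyl chains, changed most. Its intensity was 11169, 7484 and 10576 in male WT and 953, 1519 and 1618 in male KO livers. In females it was 14550.1, 7045, 9930.2, 16023 and 17581 in WT and 1917, 1648, 1844, 2365 and 1438 in KO livers. Every KO array lay below every WT array of its sex, as it did for 11.3% of all genes in males and 1.75% in females. The log2 difference was -2.84 ± 0.31 in males (standard error; limma adjusted p = 0.000146) and -2.75 ± 0.24 in females (limma adjusted p = 7.31e-06), which are 7.15-fold and 6.74-fold lower levels. Acaa1a, a paralog on chromosome 9 with 4 protein-coding genes between it and Acaa1b, read 4505 ± 268 (SD, n = 3) in male WT and 3820.0 ± 285 (SD, n = 3) in male KO livers. In females Acaa1a read 4842 ± 1216 (SD, n = 5) in WT and 3759 ± 304 (SD, n = 5) in KO livers. Its differences of -0.24 ± 0.20 and -0.33 ± 0.15 did not pass (limma adjusted p = 0.609 and 0.397). The coding sequences of the 2 genes are close, so some binding of either transcript to the other's probe cannot be set aside.

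Decr2, the peroxisomal 2,4-dienoyl-CoA reductase that prepares polyunsaturated chains for oxidation, read 244, 329.9 and 284 in male WT and 69.2, 106 and 115 in male KO livers. In females it read 305, 255, 267, 175 and 347 in WT and 106, 88.2, 73.9, 180.3 and 95.9 in KO livers, and the female groups overlapped by 1 pair of arrays, WT 4 and KO 9. The differences were -1.44 ± 0.28 in males (limma adjusted p = 0.0123) and -1.22 ± 0.21 in females (limma adjusted p = 0.00489). A second Decr2 probe, tested by itself after the data had been seen, gave -1.99 and -1.70 (limma adjusted p = 0.003 and 0.00117). Decr1, the mitochondrial reductase of the same reaction, differed by -0.19 ± 0.27 and -0.02 ± 0.21, with adjusted p-values of 0.788 and 0.983 by limma.

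Eci2, the peroxisomal isomerase that shifts double bonds of unsaturated acyl-CoA, read 3613, 1664, 1909, 3839.8 and 3895 in female WT and 1405, 1810.5, 1235, 1263 and 1798 in female KO livers. Female WT 2 and 3 lay near the KO arrays and the other 3 WT arrays far above them. Eci2 fell by 0.91 ± 0.23 on the log2 scale in females (limma adjusted p = 0.0438), a call that was lost in 17 of 25 alternative settings. In males it read 2955, 2592 and 3009.6 in WT and 1443, 1522 and 1561 in KO livers. These groups did not overlap, as was so in this direction for 11.3% of all genes. The male difference of -0.91 ± 0.29 had the same size but did not pass (limma adjusted p = 0.15). Eci1, its mitochondrial counterpart, differed by -0.70 ± 0.22 in males and -0.64 ± 0.17 in females (limma adjusted p = 0.139 and 0.0655).

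Abcd2, a peroxisomal membrane transporter of very long-chain acyl-CoA, read 107, 71.8, 150.1, 57.9 and 100.4 in female WT and 37.6, 24.4, 35.2, 63.8 and 25.1 in female KO livers, with 1 KO array, KO 9, above the lowest WT array. It fell by 1.08 ± 0.24 on the log2 scale in KO females (limma adjusted p = 0.0241). The other detected probe of Abcd2 gave only -0.25 (limma adjusted p = 0.773), so the probes of this gene disagree on the effect of KO. In males the brighter probe was detected on 0 of 3 WT and 1 of 3 KO arrays. The remaining peroxisomal genes did not pass in either sex. Hsd17b4, the D-bifunctional enzyme, differed by -0.60 in males and -0.44 in females, and Abcd3, another acyl-CoA transporter of the peroxisome, by 0.02 and -0.56. Pex11a, which acts in peroxisome division, differed by -0.06 and -0.33. Ehhadh, the L-bifunctional enzyme, read 1452, 1249 and 1018 in male WT and 1499.8, 1789 and 2246 in male KO livers without overlap, as for 11.9% of all genes. Its male difference of 0.56 ± 0.17 did not pass (limma adjusted p = 0.131), beside -0.03 ± 0.14 in females. As a group, 9 of 9 genes listed under peroxisomal oxidation lay below 0 in KO females with a median of -0.56, beside 49.4% of all genes. In KO males 6 of 9 did, with a median of -0.24, beside 47.3%. Crot, Acot3, Acot4 and Acot8 also act in peroxisomes but were listed under the carnitine shuttle and the thioesterases. None of them was called between KO and WT.

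**Figure D2:**
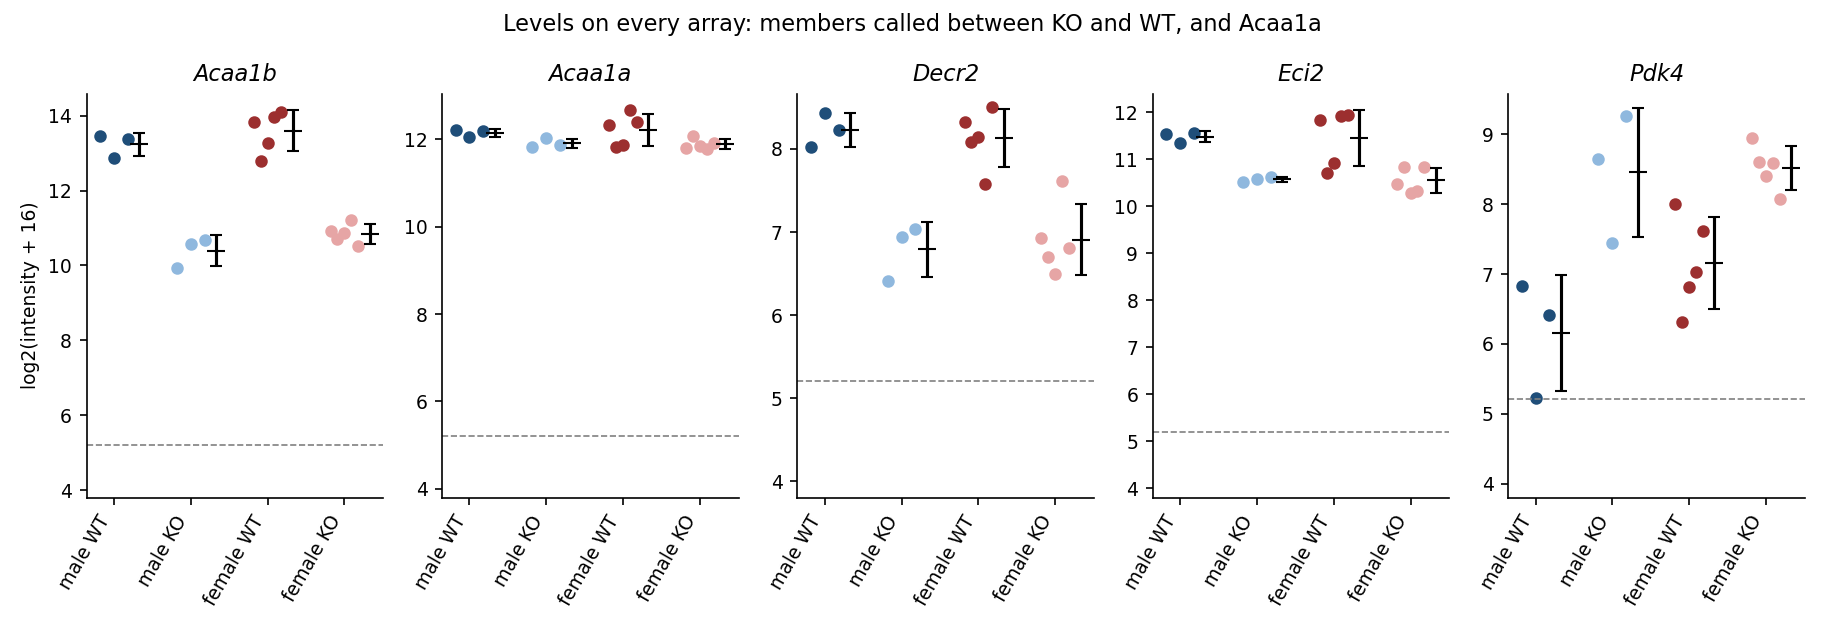
Level of 5 genes on every array, in log2(intensity + 16), for male WT, male KO, female WT and female KO livers (points, 1 per array; bar, mean and SD of the group; dashed line, detection threshold). The KO arrays of Acaa1b sit below all WT arrays of their sex, the groups of Acaa1a lie close together, and the KO arrays of Pdk4 sit above the WT arrays of their sex.

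Pdk4 rose in KO males. It codes for the kinase that inactivates pyruvate dehydrogenase and so spares glucose when fat is burned. Its intensity was 97.8, 21.4 and 69.1 in male WT and 386, 159 and 597 in male KO livers. In females it was 241, 63.9, 96.6, 114 and 181 in WT and 477, 371, 321, 368 and 253 in KO livers. The KO arrays lay above the WT arrays in both sexes, as they did for 11.9% of all genes in males and 2.14% in females. The difference was 2.30 ± 0.48 in males (limma adjusted p = 0.0198) and 1.36 ± 0.37 in females, where it did not pass (limma adjusted p = 0.0718). Angptl4, a secreted inhibitor of lipoprotein lipase and, like Pdk4, a PPARα target known to rise in fasting, had values on the other side. It read 338, 1047 and 398 in male WT and 150.1, 168 and 106 in male KO livers, without overlap, as for 11.3% of all genes. In females it read 199, 219.6, 179, 2084 and 350.4 in WT and 139.5, 212, 94.5, 75.4 and 357 in KO livers. Its differences of -1.79 ± 0.73 and -1.17 ± 0.57 did not pass (limma adjusted p = 0.266 and 0.428). The summed intensity of 9 tested fasting genes was 10027 to 11097 in male KO and 5128 to 7843 in male WT livers, a gap that rests on Igfbp1 and Asns: without these 2 genes, the sums overlapped, at 6778 to 8506 in male KO and 5024 to 7718 in male WT livers. The sum of 11 tested clock genes was 6689 to 9935 in male KO and 4967 to 6199 in male WT livers. Of it, Dbp alone gave 5918, 5348 and 3190 in male KO and 2679, 1621 and 1854 in male WT livers. Of the 11 clock genes 0 were called between KO and WT males, and 3 had a difference below 0. Of the fasting list, Igfbp1 rose by 4.36 and Asns, which also responds to amino acid shortage, by 4.23 on the log2 scale in KO males (limma adjusted p = 0.0151 and 0.00142), and Ppargc1a, the coactivator PGC-1α, fell by 0.96 (limma adjusted p = 0.0234). The part of the feeding state and the hour of collection in the Pdk4 and Angptl4 values was not tested.

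In the fit on all arrays the mitochondrial pathway held no called member in either sex. Its 10 genes had medians of -0.17 in males and -0.16 in females, with 8 and 9 of 10 below 0. Eci1, the mitochondrial isomerase for unsaturated chains, came nearest to passing in females, with -0.64 ± 0.17 (limma adjusted p = 0.0655). It was called lower there in 6 of 25 alternative settings, among them those without female WT 2 and without female KO 9, and in males, with -0.70 ± 0.22 (limma adjusted p = 0.139), in 1 of 25, array weights. Acadl, the long-chain acyl-CoA dehydrogenase, came nearest in males, where it read 276, 387 and 267 in WT and 131, 154 and 228 in KO livers, a difference of -0.82 ± 0.23 (limma adjusted p = 0.102). In females the Acadl difference was -0.20 ± 0.18 (limma adjusted p = 0.764). Acadvl, the very long-chain dehydrogenase, read 4623, 3836, 4167, 4502 and 4414 in female WT and 3143, 3482, 3454, 2370.0 and 3574 in female KO livers. Every KO array lay below every WT array in females, as for 1.75% of all genes, and in males, as for 11.3%. The differences of -0.44 ± 0.14 in females and -0.41 ± 0.18 in males did not pass (limma adjusted p = 0.152 and 0.319). Acadm, the medium-chain dehydrogenase, differed by -0.15 ± 0.26 in males and -0.01 ± 0.20 in females, and Acaa2, the mitochondrial thiolase, by 0.14 ± 0.15 and 0.06 ± 0.12. Acads, the short-chain dehydrogenase, differed by 0.01 ± 0.16 and -0.32 ± 0.12, and Hadh, a 3-hydroxyacyl-CoA dehydrogenase, by -0.13 ± 0.20 and -0.19 ± 0.15. Hadha and Hadhb, neighbouring genes for the subunits of the trifunctional protein, differed by -0.61 and -0.06 in males and by -0.09 and -0.12 in females. The Hadha probe was dim, at 50.4 to 163 over the 16 arrays, beside 5233 to 8740 for Hadhb. How well this probe measures Hadha was not tested. The electron transfer genes Etfa, Etfb and Etfdh, which pass electrons from the dehydrogenases to ubiquinone, differed by between -0.30 and 0.24 over both sexes.

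In the carnitine shuttle, Slc25a20, the carnitine-acylcarnitine carrier of the inner membrane, read 2838, 3199 and 2988 in male WT and 1855, 2130.2 and 1685 in male KO livers. In females it read 4184, 2465, 2836, 3171 and 5537 in WT and 1906, 2315, 2026, 2308 and 2339 in KO livers. The KO arrays lay below the WT arrays in both sexes, as they did for 11.3% of all genes in males and 1.75% in females. The differences of -0.67 ± 0.24 and -0.68 ± 0.18 did not pass (limma adjusted p = 0.193 and 0.0656). Some alternative settings called Slc25a20 lower in KO females. Among them were the mean of detected probes (limma adjusted p = 0.036) and the fit without female WT 2 (limma adjusted p = 0.0243). In KO males only array weights did (limma adjusted p = 0.0218). Cpt2, the inner carnitine palmitoyltransferase, differed by -0.30 in males and -0.39 in females, Crot, the peroxisomal octanoyltransferase, by 0.14 and -0.08, and Crat, the acetyltransferase, by 0.88 and 0.24. Bdh1, which reduces acetoacetate to 3-hydroxybutyrate and is the only listed ketogenesis gene, read 1718 ± 177 (SD, n = 3) in male WT and 1538 ± 82.6 (SD, n = 3) in male KO livers. In females it read 2679 ± 848 (SD, n = 5) and 2205 ± 563 (SD, n = 5), and the differences of -0.15 ± 0.26 and -0.26 ± 0.20 did not pass (limma adjusted p = 0.825 and 0.708). Slc27a2, a very long-chain acyl-CoA synthetase and transporter, differed by -0.28 and -0.59, and Plin2, a lipid droplet coat protein, by 0.05 and -0.30, with no call. Cd36, a fatty acid carrier of the cell surface, differed by 0.20 ± 0.29 and -0.73 ± 0.23 (limma adjusted p = 0.791 and 0.128).

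The acyl-CoA thioesterases, which release free fatty acids from CoA, held no member called between KO and WT. In males 6 of 6 lay below 0 with a median of -0.40, and in females 5 of 6 with a median of -0.39. Acot1 had the lowest difference of these 6 in both sexes, given below with its values, and Acot3 differed by -0.17 ± 0.54 in males and -0.92 ± 0.42 in females (limma adjusted p = 0.913 and 0.375). Acot4 differed by -0.03 ± 0.31 and -0.24 ± 0.24, Acot8 by -0.46 ± 0.21 and -0.37 ± 0.17, and Acot12 by -0.33 ± 0.21 and -0.41 ± 0.16. Acot2 differed by -0.70 ± 0.43 and 0.39 ± 0.33.

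The promoters of these genes were searched for the DR1 element, the hexamer AGGTCA followed after any base (N) by AGGTCA again, on both strands, in RefSeq windows (GRCm38.p6) from 250 bases before to 50 bases after the start of transcription. A window was on hand for 35 of the 42 listed genes. Of these, 7 (20%) held a stretch with at most 2 mismatches in the 12 fixed bases, beside 4.40% of 27025 genes. The 7 are printed because they show which members carry letters close to the element that PPARα and RXRα bind, with the element in capitals and 6 bases on each side in lower case, 5′ to 3′ on the strand named.
Acot12 (chr13:91741405-91741429, - strand): cttaggAGGTGAGAGGTCAgggtcc
Fabp1 (chr6:71199806-71199830, - strand): agatatAGGCCATAGGTCAgtgatt
Acot4 (chr12:84038360-84038384, - strand): acagacCGGCCAAAGGTCAtgcttc
Cd36 (chr5:17835941-17835965, + strand): ccaagtAAGTCAGAGGCCAgagaac
Etfa (chr9:55512302-55512326, + strand): gggagtAGGGCAAAGGTAAgggtgt
Plin2 (chr4:86670266-86670290, + strand): tgacttAGGTCAGGGGTCCtgaaag
Slc25a20 (chr9:108662136-108662160, + strand): gaatgtAGGTGAAAGGTCGgcggag
The stretches of Acot12 and Fabp1 have 1 mismatch and the others 2. Their centres lie 104 bases before the start in Acot12, 61 in Fabp1, 7 in Acot4, 57 in Cd36, 71 in Etfa and 219 in Plin2, and 12 bases after the start in Slc25a20. Of these 7 genes Fabp1 could not be tested and 6 were not called between KO and WT in the fit on all arrays, while Acot4 and Cd36 were called between the sexes. Slc25a20 and Acot12 were called lower in KO females in the fit without female WT 2. The members that were called between KO and WT and have a window, Acaa1b, Decr2, Eci2 and Pdk4, held no such stretch within 2 mismatches. A match is a description of letters and not a binding site, and the window covers only the first bases around the start.

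The 250 bases before the start of Acaa1a and of Acaa1b are printed because only the latter of these nearby thiolase genes was called between KO and WT livers. In each, the stretch closest to the DR1 element is in capitals, 5′ to 3′ on the gene's own strand, and has 5 mismatches in Acaa1a and 4 in Acaa1b, where it reads on the opposite strand.
Acaa1a (chr9:119341044-119341293, + strand): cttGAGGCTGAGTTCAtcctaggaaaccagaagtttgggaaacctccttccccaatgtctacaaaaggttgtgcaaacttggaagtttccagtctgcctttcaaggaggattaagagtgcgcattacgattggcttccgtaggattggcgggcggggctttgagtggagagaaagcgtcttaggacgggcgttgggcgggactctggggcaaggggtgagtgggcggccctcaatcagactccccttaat
Acaa1b (chr9:119157094-119157343, - strand): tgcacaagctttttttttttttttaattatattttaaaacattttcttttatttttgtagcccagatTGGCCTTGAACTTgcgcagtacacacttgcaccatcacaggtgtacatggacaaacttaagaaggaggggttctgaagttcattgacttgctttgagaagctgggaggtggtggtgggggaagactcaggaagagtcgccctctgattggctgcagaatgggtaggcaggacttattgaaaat
In a global alignment 105 of 241 aligned bases (43.6%) were identical.

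The thioesterases Acot3 and Acot4 were far lower in male than in female livers of both genotypes, and Abcd2, Ehhadh and Cd36 were lower in male than in female WT livers. The comparison of males and females within WT livers called 5 members lower in males and 0 higher, where 2.11% of all genes were called lower and 1.62% higher. Within KO livers it called 2 lower and 0 higher, where 1.39% and 0.989% of all genes were. The median member difference, male minus female, was -0.19 in WT and -0.18 in KO livers, beside -0.02 and 0.01 for all genes. The WT median lay at -0.29 without female WT 2, and at -0.05, with 20 of 38 members below 0, in the fit that takes the replicate number as a block.

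Acot3 and Acot4 code for acyl-CoA thioesterases of the peroxisome in mouse, and they lie side by side in a run of 4 paralogs on chromosome 12, in the order Acot2, Acot1, Acot4 and Acot3 with no other protein-coding gene between them. Acot3 read 1608, 508, 688, 1886 and 2357 in female WT and 29.9, 7.58 and 6.81 in male WT livers. In KO livers it read 499, 1179, 568, 779 and 377 in females and 8.87, 0.7 and 25.7 in males. It was detected on 10 of 10 female arrays and on 2 of 6 male arrays. The difference, male minus female, was -5.39 ± 0.48 in WT (limma adjusted p = 2.19e-06) and -4.64 ± 0.48 in KO livers (limma adjusted p = 1.57e-05), and 4 of 6 male values were not above background. With each male array set at no less than its detection floor, the female level was at least 30.7-fold that of males in WT and at least 16.8-fold in KO livers. The fitted difference in WT moved between -6.22 and -4.30 over the alternative settings. Acot4 read 920.3, 537, 538, 949 and 1223 in female WT and 159, 131 and 124 in male WT livers. In KO livers it read 577, 892, 602, 807 and 523 in females and 109, 112 and 197 in males. Its groups did not overlap between the sexes in either genotype, as was so in this direction for 5.90% of all genes in WT and 6.46% in KO livers. The difference was -2.40 ± 0.28 in WT (limma adjusted p = 3.79e-05) and -2.18 ± 0.28 in KO livers (limma adjusted p = 0.000145), or 5.27-fold and 4.54-fold.

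Acot1, the cytosolic member of the run, read 2610.3, 478, 599.9, 1515 and 1954 in female WT and 488, 531 and 422 in male WT livers. Female WT 1, 4 and 5 lay far above the male arrays, while female WT 2 and 3 lay close to them. In KO livers Acot1 read 552, 1138, 502, 380.4 and 440.3 in females and 137, 264 and 314 in males. Its sex differences of -1.27 ± 0.48 and -1.24 ± 0.48 did not pass (limma adjusted p = 0.175 and 0.237), and neither did its KO differences of -1.03 ± 0.54 in males and -1.06 ± 0.42 in females (limma adjusted p = 0.399 and 0.275). Acot2, the mitochondrial member, was detected on 3 of 16 arrays. The 4 genes share much of their coding sequence, and cross-hybridization between their probes and transcripts was not tested. Acot8 of the peroxisome and Acot12, a cytosolic acetyl-CoA hydrolase, lie elsewhere in the genome and differed by -0.09 and -0.33 in WT, with no call.

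**Figure D3:**
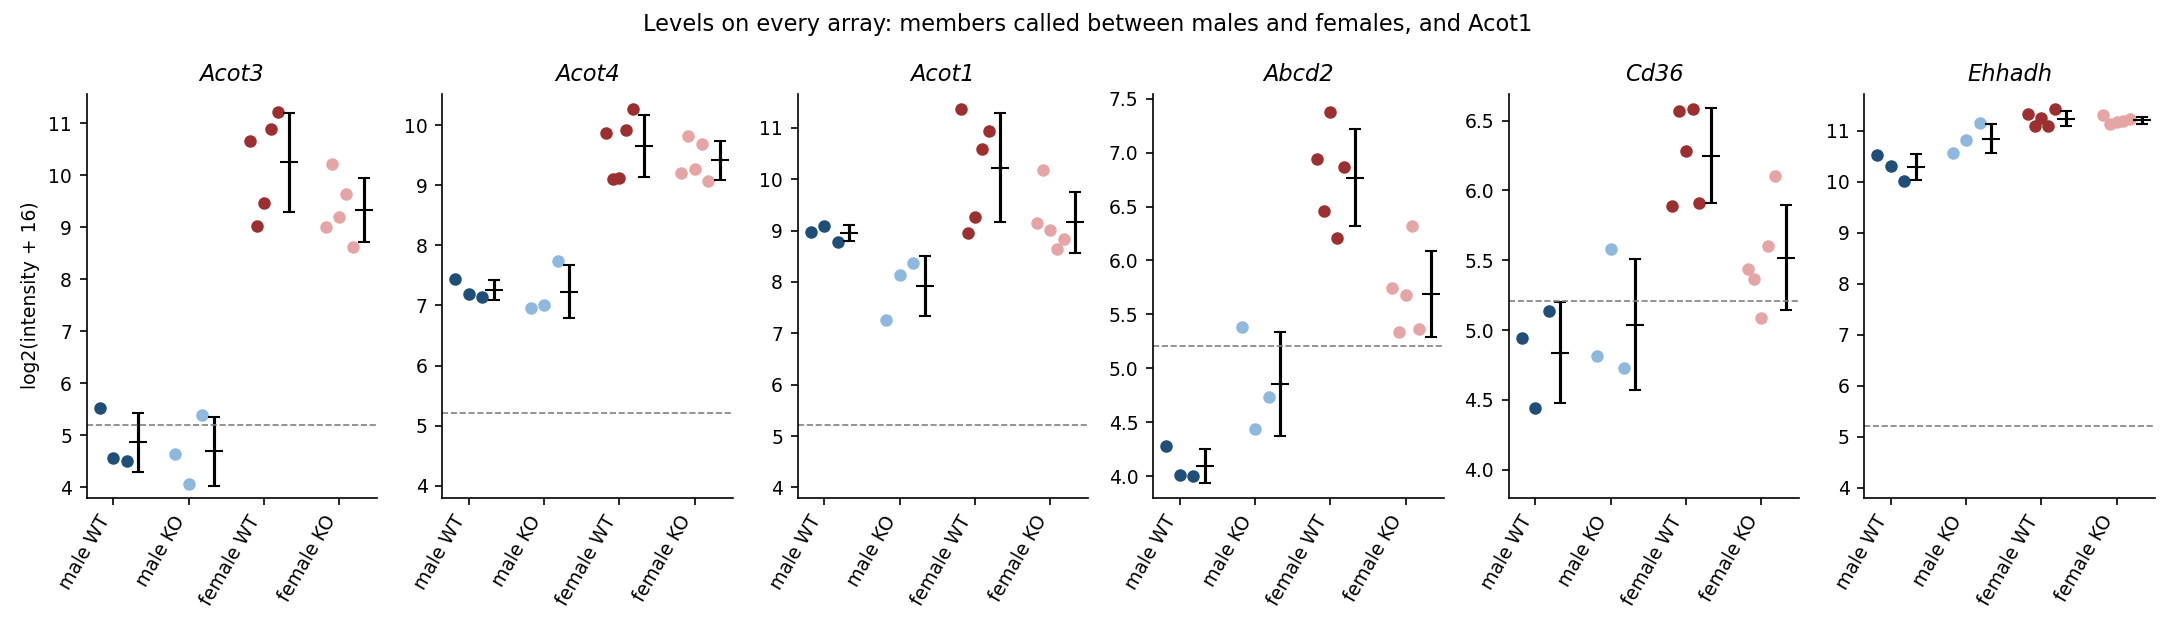
Level of 6 genes on every array, in log2(intensity + 16), for male WT, male KO, female WT and female KO livers (points, 1 per array; bar, mean and SD of the group; dashed line, detection threshold). Female arrays of Acot3 and Acot4 sit above all male arrays in both genotypes, whereas female WT 2 and 3 of Acot1 sit beside the male WT arrays.

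Abcd2 read 3.35, 0.08 and -5.49 in male WT livers, not above background on 3 of 3 arrays, beside the female WT values of 57.9 to 150.1. The female WT level was at least 2.95-fold that of male WT (limma adjusted p = 1.25e-05). In KO livers the male values were 25.8, 5.69 and 10.6 and the female values 24.4 to 63.8, and the difference of -0.84 ± 0.28 did not pass (limma adjusted p = 0.158). The second Abcd2 probe was detected on 10 of 10 female and 0 of 6 male arrays, which gives a female level at least 2.29-fold that of males in WT and at least 1.92-fold in KO livers (limma adjusted p = 0.00249 and 0.00198). Cd36 read 43.3, 78.9, 62, 80.1 and 44 in female WT and 14.7, 5.71 and 19.2 in male WT livers, where 0 of 3 arrays were above background. The female WT level was at least 2.06-fold higher (limma adjusted p = 0.00466), and in KO livers, with 27.4, 25.2, 18, 32.5 and 52.7 in females and 12.1, 31.8 and 10.5 in males, the difference of -0.48 ± 0.26 did not pass (limma adjusted p = 0.437). Cd36 is also made by endothelial cells and macrophages, whose markers are given below.

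Ehhadh read 2561, 2154, 2429, 2154 and 2717 in female WT and 1452, 1249 and 1018 in male WT livers, which did not overlap, a difference of -0.95 ± 0.16 (limma adjusted p = 0.0016). In KO livers it read 2516, 2226, 2281, 2313 and 2391 in females, and with the higher male KO values given above the difference was -0.36 ± 0.16 (limma adjusted p = 0.302). Hadh was the remaining member whose WT groups did not overlap between the sexes, as was so in this direction for 5.90% of all genes. It read 678, 648, 755, 652 and 666 in females and 492, 463 and 537 in males, a difference of -0.44 ± 0.18 that did not pass (limma adjusted p = 0.204). With the mean of its detected probes, the Hadh difference was -0.7 and passed (limma adjusted p = 0.0291), so its call depends on the probes used.

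Whether the effect of KO differed between the sexes was tested by the interaction of sex and genotype. The limma fit called 0 of 38 members, where 0.0909% of all genes were called, and 3 members were higher and 0 lower at an unadjusted p under 0.05, beside 4.26% and 4.36% of all genes. These 3 were Abcd2 with 1.84 ± 0.39 (limma adjusted p = 0.137), Ehhadh with 0.59 ± 0.22 (limma adjusted p = 0.525) and Cd36 with 0.93 ± 0.37 (limma adjusted p = 0.564). The Abcd2 value rests on a probe detected on 0 of 3 male WT and 1 of 3 male KO arrays, and the second Abcd2 probe, at background on all male arrays, gave -0.08 ± 0.39 (limma adjusted p = 0.952). For each of the 3 the female WT level was the highest of the 4 group means. The interaction for Acaa1b was -0.09 ± 0.40 and for Decr2 -0.22 ± 0.35 (limma adjusted p = 0.945 and 0.83). The KO comparisons of males and of females share no array, but each shares its arrays with the comparisons of the sexes.

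The female WT arrays differed among themselves across most of these genes. Of the 38 members, 1 lay above its group mean on female WT 2 and 10 on female WT 3, but 31, 25 and 32 did on female WT 1, 4 and 5. The median deviation from the group mean was -0.40 on WT 2 and -0.22 on WT 3, beside 0.16, 0.23 and 0.23 on WT 1, 4 and 5. For all genes it lay between -0.03 and 0.01 on these arrays. Female WT 2 gave the lowest of the 5 values for 30 of 38 members. The SD over female WT arrays exceeded that over female KO arrays for 30 of 38 members (78.9%), beside 63.0% of all genes, and without WT 4 for 26 of 38 (68.4%), beside 47.5%. In males the WT SD was the larger for 15 of 38 members (39.5%), beside 58.3% of all genes.

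**Figure D4:**
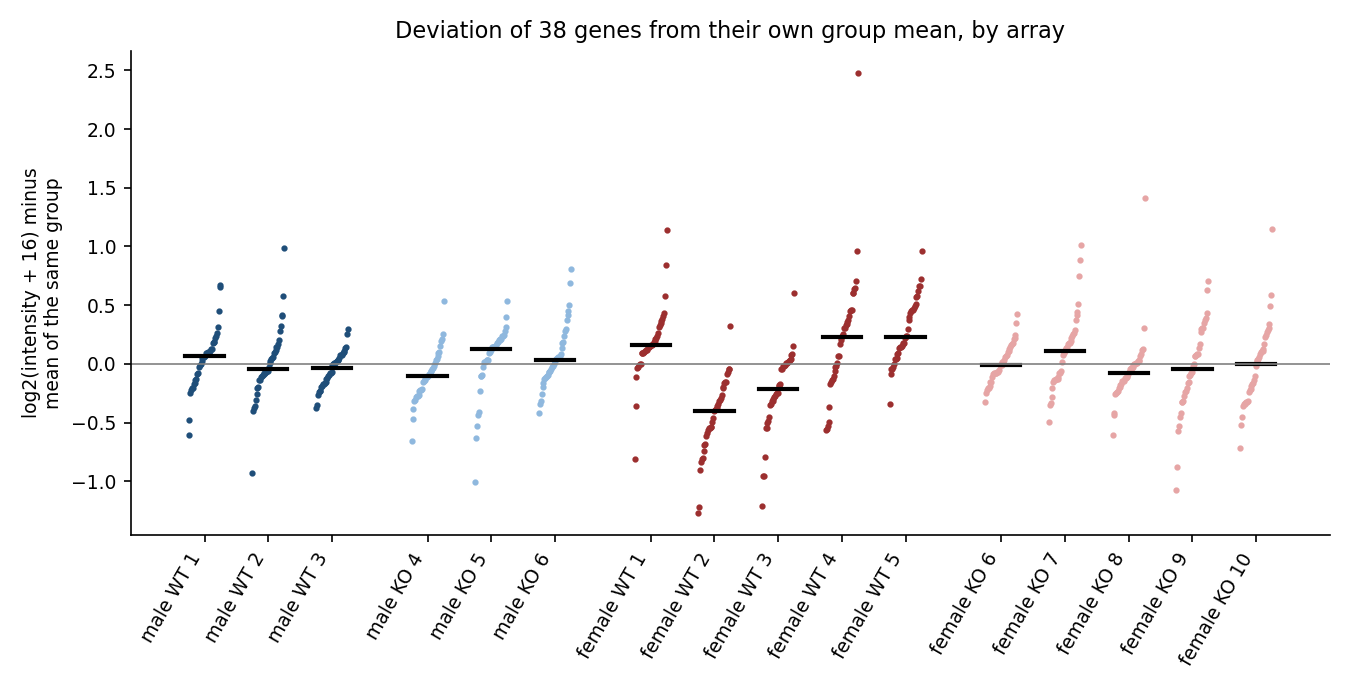
Deviation of each of the 38 tested genes from the mean of its own group, in log2(intensity + 16), on each of the 16 arrays (points, 1 per gene, sorted within an array; black line, median). The points of female WT 2 lie almost wholly below 0, with a median of -0.40, and those of female WT 1, 4 and 5 mostly above it.

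Markers of other cells and states also differed among these arrays. Of 9 Kupffer cell markers 8 were tested, and 8 of 8 had their highest female WT value on WT 2, where Clec4f read 2452 and Adgre1 3311. Their summed intensity was 13924 on WT 2, beside 4021 to 6834 on the other female WT arrays, 4538 to 5600 in male WT, 4584 to 7486 in male KO and 4851 to 6597 in female KO livers. The summed intensity of 2 of 4 neutrophil markers was 1500 on WT 2 and 103 to 758 on the others. Of 8 endothelial markers 7 were tested, with sums of 8328 to 10318 in female WT and 7190 to 8250 in male WT livers. Clec4g alone read 6301 to 8482 and 5516 to 6568 in these groups. Hepatocyte markers summed to 88560 on WT 2, within the female WT range of 79619 to 98553. Most of the WT 2 sum came from Apoa1, Ttr and Cps1, at 28915, 26936 and 20349, so it says little of the other markers. Female WT 4 carried the highest sum of 9 tested fasting genes, 25429 beside 4540 to 7361 on the other female WT arrays, and of 11 tested clock genes, 9180 beside 3068 to 4449. Female KO 10 had sums of 19159 and 9962 for the same lists, beside 5071 to 8265 and 3452 to 5546 on the other female KO arrays. On female WT 4, Pck1 and G6pc of the fasting list read 10306 and 10384. Of 7 tested feeding genes, 4 had their highest female WT value on WT 4 and 0 their lowest. The sum of these feeding genes was 50576 on WT 4, within the female WT range of 34575 to 60411. Of it, Scd1 gave 27728 and Acly 16965. The adipocyte list had 0 of 6 genes bright enough to test. The part of these cells and states in the KO differences was not tested.

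Without female WT 2 the limma fit called 8 members lower in KO females: Acaa1b, Decr2, Eci2 and Abcd2 as before, with Eci1, Abcd3, Acot12 and Slc25a20. Without female WT 4 it called Acaa1b, Decr2 and Abcd2, and without female WT 5 or female KO 7, 8 or 10 it called only Acaa1b and Decr2. The member median in females lay between -0.42 without WT 2 and -0.23 without WT 4. In males the fit called Acaa1b and Decr2 but not Pdk4 without male KO 6, and only Acaa1b without male WT 2, male WT 3 or male KO 4, each of which leaves a group with 2 arrays.

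Other genes of fatty acid handling, taken from a list of 61 of which 43 were tested, were also called. In KO males 2 of 43 fell and 0 rose, where 0.646% of all genes were called lower and 0.919% higher, and in KO females 5 fell and 2 rose, where 1.09% and 1.29% were. Ech1, a dienoyl-CoA isomerase of mitochondria and peroxisomes, fell by 0.83 ± 0.16 on the log2 scale in males and fell by 0.74 ± 0.13 in females (limma adjusted p = 0.0142 and 0.00408). Aldh3a2, the fatty aldehyde dehydrogenase, fell by 1.77 ± 0.34 in males and fell by 1.29 ± 0.26 in females (limma adjusted p = 0.0103 and 0.0129). These were the only genes of the list called in both sexes. In females Cyp4a14, an omega-hydroxylase of fatty acids and a known PPARα target, read 5614, 1039, 733, 5605 and 2337 in WT and 29.5, 149, 98.4, 84.8 and 302 in KO livers, a difference of -4.21 ± 0.70 (limma adjusted p = 0.0031). In males it read 413, 402 and 118 in WT and -1.40, 147 and 18 in KO livers, a difference of -2.69 ± 0.90 that did not pass (limma adjusted p = 0.166). In KO females Nudt7, a peroxisomal CoA diphosphatase, fell by 1.09 ± 0.18, and Plin5, a droplet protein of oxidative tissues, fell by 1.14 ± 0.25 (limma adjusted p = 0.00272 and 0.0224). Also in KO females, Acad12, a member of the acyl-CoA dehydrogenase family, rose by 0.98 ± 0.17, and Bdh2, a short-chain dehydrogenase, by 0.88 ± 0.20 (limma adjusted p = 0.00489 and 0.0267). None of these genes was called in KO males.

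Between the sexes the same list had 1 gene higher and 4 lower in WT males, and 1 higher and 5 lower in KO males, of 43. Of all genes 1.62% were called higher and 2.11% lower in WT, and 0.989% and 1.39% in KO livers. Nudt7 was the higher gene in both, by 1.16 ± 0.20 in WT and 2.06 ± 0.20 in KO livers (limma adjusted p = 0.00305 and 9.21e-06). Hacl1, the peroxisomal 2-hydroxyacyl-CoA lyase, Aldh3a2 and Lipa, the lysosomal acid lipase, were lower in males in both genotypes, Aldh3a2 with log2 differences of -1.30 ± 0.30 and -1.77 ± 0.30 (limma adjusted p = 0.023 and 0.00265). Acsl5, a long-chain acyl-CoA synthetase, was lower in WT males by a log2 difference of -0.75 ± 0.16 (limma adjusted p = 0.0138). In KO males Acad9, an acyl-CoA dehydrogenase family member, and Acot13, a thioesterase, were lower, with differences of -0.64 ± 0.15 and -0.63 ± 0.15 (limma adjusted p = 0.036 and 0.0353). Ppara itself was dim, at 35.4, 14.2, 30.1, 46.6 and 18.8 in female WT and 16, 12.2 and 19.4 in male WT livers, and its KO differences of 0.34 ± 0.26 and 0.26 ± 0.20 did not pass (limma adjusted p = 0.568 and 0.701).

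The likeness of a gene to the mitochondrial group was described by Pearson's r, over the 16 arrays, of its deviations from the group means with the mean deviation of the 10 mitochondrial genes. The arrays share the spread of female WT described above, so these values carry no test. Among the other members Eci2 (0.774), Acot12 (0.773) and Slc25a20 (0.752) were the most alike, while Decr2 (0.199), Abcd2 (-0.105) and Cd36 (-0.177) were among the least alike. Outside the list the closest genes were Pbld1 (0.862), Idh3b (0.854), Cyp4a31 (0.841), Atg16l1 (0.839) and Ephx2 (0.836).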

How the data were processed

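Liver RNA of 16 mice was measured on Illumina Ref-6 v2 arrays. The authors deposited probe intensity values on a linear scale, which the values show to be background-subtracted and quantile normalized; the submitters' processing notes name lumi. A second table of 32 columns, non-normalized signals with detection p-values, was not used here because its names match no sample label.

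The analysed scale is log2 of the intensity, with negative values raised to 0 first and an offset of 16. A probe counted as detected above 3 times the root mean square of the values below 0 of its array. Genes with a probe detected on at least 3 of 16 arrays were kept (9906 genes), each by its brightest probe. Differences come from limma (version 3.58.1, R 4.3.3), fitted with 4 group means and with p-values corrected across all 9906 genes (Benjamini-Hochberg), at a threshold of 0.05; residual degrees of freedom were 12. On simulated data for KO and WT males the fit recovered 54% of changes of 1 and 94% of changes of 2 on the log2 scale. The simulation gave each gene independent noise of the same spread on every array. In these data the members vary together, and estimated array weights ran from 0.294 (female WT 4) to 4.66 (male WT 3). The simulated shares therefore do not measure the power of the KO comparison for these members. Precision is limited by the number of arrays, 3 in each male group.

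All 42 listed genes are accounted for. Named are the members and, from the list of other fatty acid genes, those that passed. Other pathway and marker lists were written by hand. The members and lists were chosen with earlier results of these data known. Promoters were RefSeq sequences.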

Additional observations from a re-analysis of the deposited data

Results flagged for a closer look

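In a group of 5 arrays a value was singled out where its gap to the nearest other value, divided by the range of the group, exceeded Dixon's critical value of 0.71, which chance exceeds in about 1 of 20 groups; of 100 such groups, 4 did. Angptl4 read 2083.8 on female WT 4, beside 178.9 to 350.4 on the other female WT arrays. Etfa read 11330.6 on female WT 2, beside 13708.6 to 14492.9. Acot2 read 70.4 on female KO 8, beside 6.7 to 14.7 on the other female KO arrays, all of which lay below the detection threshold. Acot12 read 647.2 on female KO 10, beside 487.5 to 510.0. Female WT 2 and female WT 4 are the arrays with the highest Kupffer cell markers and the highest fasting markers of their group, and the part of either in these values was not tested.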

How the results depend on the processing

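The 34 named differences were recomputed under the alternative settings, which gave 854 values of a gene in a setting. Of these, 748 kept the direction and the call, 106 kept the direction but lost the call and 0 reversed. Leaving out an array that is not part of a comparison cannot move its log2 difference, so the direction of many of these values was fixed in advance. Acaa1b kept its call in all of its alternatives in both sexes, as did Acot3 and Acot4 between the sexes. In KO females the count of 4 called members became 2 with an offset of 4, 7 with an offset of 50 (6 lower, and Pdk4 higher) and 2 with no detection filter. In KO males 3 became 11 with array weights, where the fit called 1615 of all genes (16.3%). Between the sexes in WT, 5 became 2 when only genes detected on all 16 arrays were kept, which removes Acot3, Abcd2 and Cd36, and 8 with array weights. In KO livers 2 became 1 with genes detected on all 16 arrays, which removes Acot3. The interaction count of 0 became 1 with array weights (Abcd2, 2.14, adjusted p = 0.00616 by limma, on the probe at background in male WT). Leaving out each array in turn gave 1 to 3 calls in KO males, 2 to 8 in KO females, 5 to 5 and 2 to 2 between the sexes in WT and in KO livers, and 0 to 0 for the interaction. Where the cause of a moved count is not given here, the cause was not tested. Male and female WT arrays of the same replicate number share only that number: the correlations of their deviations were 0.0981, 0.261 and 0.0752. With the replicate number as a block, in the 3 numbers that both WT groups share, 3 members were called between the sexes (Acot3, Acot4 and Abcd2). The probes of Abcd2 and Cd36 in male WT lay at background and give only bounds, and Acot3 was above it on 2 of 6 male arrays.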
